A study of Mus musculus with 24 samples.

Results

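Complex I of the mitochondrial respiratory chain (NADH:ubiquinone oxidoreductase) is described here through the transcripts of its nuclear genes in mouse oocytes, eggs and zygotes. The members are the 42 rows of the deposited expression table whose symbol begins with Nduf, out of 23235 genes. They comprise 36 subunits of complex I, 4 assembly factors (Ndufaf1 to Ndufaf4), and Ndufa4 and Ndufa4l2, whose products are counted today with complex IV (cytochrome c oxidase). The subunits carried by mitochondrial DNA were not analysed here. RNA came from C57BL/6 mice at postnatal day 21 that were wild type (WT), labelled Cnot6l-/- or labelled Btg4-/-, and the labels give no further allele for any of the 3 genotypes. Each genotype was sampled as oocytes at the germinal vesicle (GV) stage 48 h after PMSG, as oocytes in meiosis I (MI) after 8 h of culture, as eggs in meiosis II (MII) after 16 h, and as zygotes taken from fertilised females 24 h after hCG. PMSG and hCG are gonadotrophins given to stimulate follicles and ovulation. Each of the 12 groups had 2 libraries. The labels do not say whether they came from separate animals, so the p-values measure the spread between these libraries, which may be technical. The comparisons ask how the stored transcripts of complex I fall during maturation, and how that fall differs where CNOT6L, a deadenylase of the CCR4-NOT complex, or BTG4, an adaptor of that complex, is targeted.

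Complex I takes electrons from NADH and passes them to ubiquinone while pumping protons across the inner mitochondrial membrane. The N module binds NADH and holds the flavin, the Q module reduces ubiquinone, and the membrane arm (the proximal and distal P modules) pumps the protons. Assembly factors join these modules and do not stay in the finished enzyme. Oocytes depend on mitochondrial respiration, and they mature without new transcription, on maternal mRNA made while they grew. CCR4-NOT shortens the poly(A) tails of such mRNA, which is the usual opening step of its decay.

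The scale of the values changed with stage. Summed FPKM fell with stage in every genotype, in WT from 451732 and 543648 in the GV libraries to 49930 and 76038 in zygotes, so the deposited FPKM (fragments per kilobase, scaled to the mapped fragments) are not shares of a fixed total. Changes are therefore given as deposited and, where it matters, after median-ratio scaling, which levels the libraries on 3677 genes above 1 FPKM in all of them and moved the median change of all genes tested from GV to MII in WT from -1.37 to -0.37 on the log2 scale. Cnot6l stood at 3.4 to 7.26 FPKM in the 8 Cnot6l-/- libraries and at 7.07 to 73.9 in WT, where the lowest zygote library met the mutant range. Btg4 transcript stood at 765 to 2515 FPKM in the libraries labelled Btg4-/- and at 554 to 2490 in WT, so the expression values do not show the Btg4 label. The 12 oocyte markers summed to 12713 to 15741 FPKM over the 6 GV libraries, against 16.4 to 28.3 for 12 cumulus and granulosa markers. Of the latter, 2 were at 0 in both WT GV libraries. Cyp19a1 stood highest there, at 10.7 and 10.4 FPKM, followed by Inha at 5.72 and 4.33. Each library was made from more than 1 cell, so fewer cells and less RNA per cell cannot be told apart.

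At GV the Nduf transcripts were abundant and differed widely in level. Their FPKM summed to 8158 and 6996 in the WT libraries, which was 1.5% and 1.55% of all FPKM. Ndufa2, a small N-module subunit on chromosome 18, stood highest, at 622 ± 1.10 FPKM (SD, n = 2). Ndufb4 of the membrane arm followed at 616 ± 139 FPKM (SD, n = 2) and Ndufa4 at 494 ± 151 (SD, n = 2), and these neighbours did not differ beyond their spread. The lowest subunit was Ndufs1, the largest iron-sulphur protein of the N module, at 8.29 and 7.39 FPKM. Ndufaf1 (1.40 and 0.53) and Ndufa4l2 (0.20 and 0.68) were below a mean of 1 FPKM in WT GV and entered the test only through other groups.

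Few members differed between genotypes at GV. Of the 42 members, 1 was called higher than WT in Cnot6l-/- (6.06% of all genes tested were) and 1 in the oocytes labelled Btg4-/- (6.10% were), and none was called lower. Called means an adjusted p under 0.05 (limma, Benjamini-Hochberg over 10884 genes). The member was Ndufa4l2, a paralogue of Ndufa4, in each case. It stood at 2.51 and 2.48 FPKM in Cnot6l-/- and at 1.19 and 1.53 in oocytes labelled Btg4-/-, above both WT libraries (0.20 and 0.68). It was tested at all only because its mean passed 1 FPKM in the GV and MI groups of the mutants, where it is high, so these calls are a description and support nothing further. The same holds for its later calls and for those of Ndufaf1, which also entered the test only through mutant groups. The log2 difference of Ndufa4l2 from WT at GV, on the log2(FPKM + 1) scale used throughout, was 1.30 (SE 0.18, adjusted p = 0.00010) and 0.73 (SE 0.18, adjusted p = 0.024). The call in the group labelled Btg4-/- was lost with a pseudocount of 0.1 (adjusted p = 0.16), after scaling (0.30), and without the GV replicate 1 of WT (0.16) or either GV library labelled Btg4-/- (0.052 and 0.079).

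From GV to MII, every Nduf transcript fell in WT in the deposited FPKM, while after scaling Ndufa10 rose and Ndufa4 turned to a higher value that missed the test. All 42 were called lower, against 83.4% of all genes tested, and their median log2 change was -4.99, against -1.37 for all genes. After scaling the median was -3.46 against -0.37, and of 41 members tested 35 were lower (43.2% of all genes then tested were) and 1, Ndufa10, was higher (14.9% were). The members' share of all FPKM went from 1.53% at GV to 0.537% at MII. Over the 41 members other than Ndufa4l2, the median WT level at MI was 13.5% of that at GV, at MII stood at 2.1%, and in zygotes at 2.48%. At MII, 26 of the 41 stood under 5% of their GV level and 4 over 20%.

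**Figure D1:**
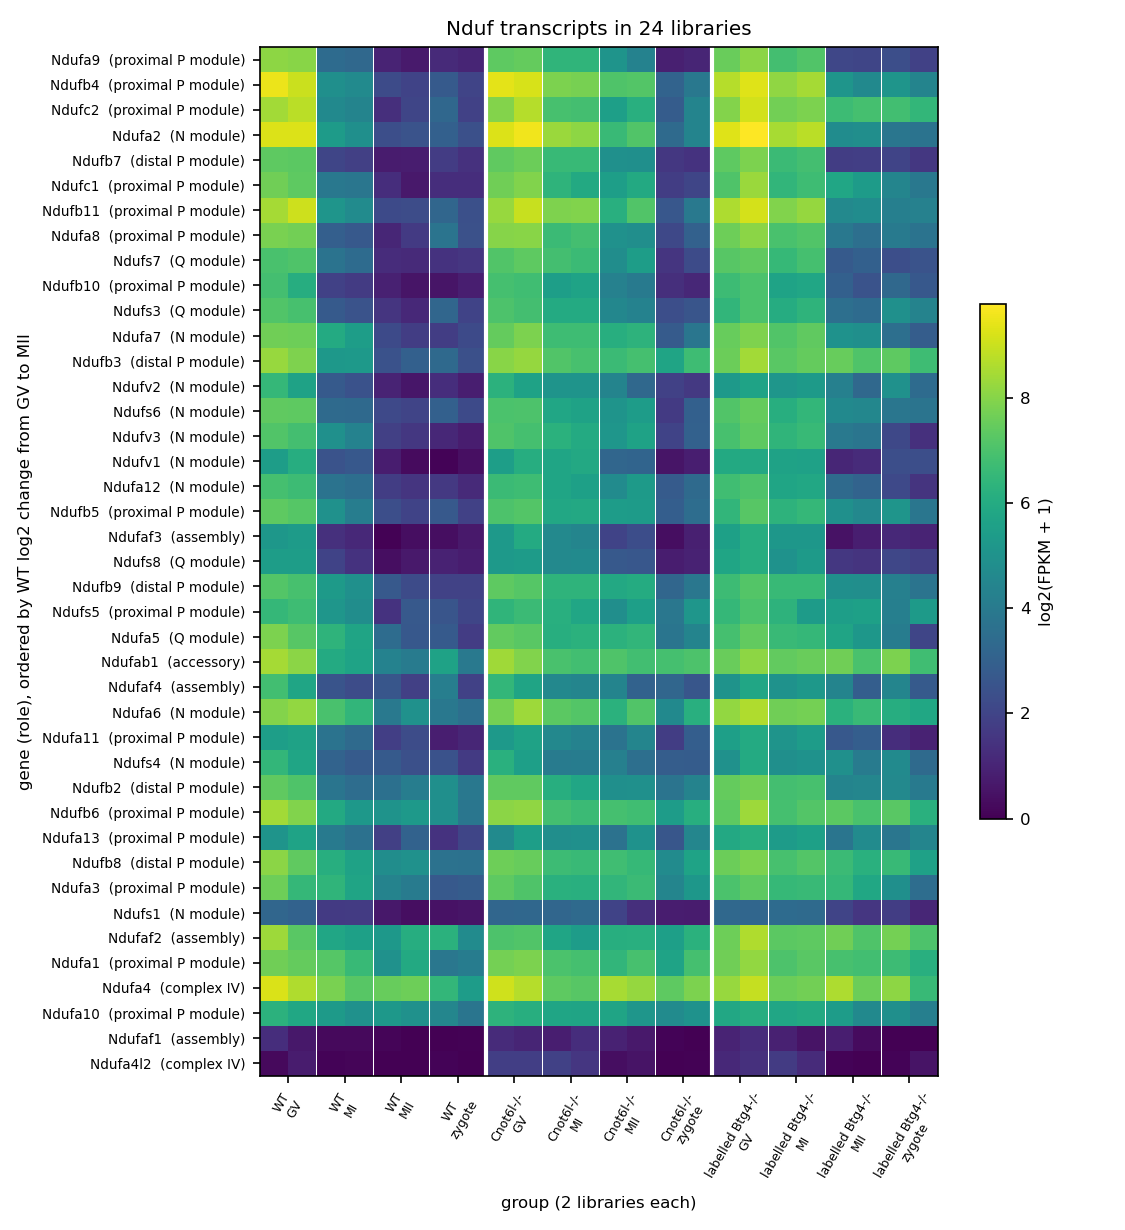
Each row is a Nduf gene (41 of the 42) with the role it was listed under, and each column a library, coloured by log2(FPKM + 1). Genes are ordered by their WT change from GV to MII. Ndufa9, Ndufb4, Ndufb5, Ndufb6, Ndufb10 and Ndufb11 are labelled proximal here, though they are not subunits of the proximal membrane arm. The WT columns turn dark from MI onward, while the Cnot6l-/- columns stay lighter through MII and darken in zygotes.

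The fall ran through each arm of the enzyme. In the N module Ndufa2 fell furthest, from 622 and 623 FPKM at GV to 40.1 and 28.4 FPKM by MI, then to 4.07 and 4.63 by MII, with 7.10 and 4.29 in zygotes. Its log2 change from GV to MII was -6.87 (SE 0.33, adjusted p = 2.4e-11). Ndufs1 had the smallest change there on the log2(FPKM + 1) scale, which compresses its low values, from 8.29 and 7.39 to 0.54 and 0.27 FPKM, by -2.66 (SE 0.25, adjusted p = 3.7e-08). As a share of GV it stood at 5.17%, below Ndufs4 (7.31%) and Ndufa6 (8.04%). At neither gene did the GV and MII libraries overlap. In the Q module Ndufs7, which carries an iron-sulphur cluster next to the ubiquinone site, went from 124 and 137 to 1.39 and 1.22 FPKM, a log2 change of -5.83 (SE 0.28, adjusted p = 2.1e-11). Ndufa5, an accessory subunit of that module, went from 230 and 150 to 10.1 and 5.43 FPKM, by -4.47 (SE 0.52, adjusted p = 6.0e-07). All 10 N-module and all 5 Q-module members were called lower.

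Among the subunits, the extremes lay in the membrane arm and at its joint with the Q module. Ndufa9, an accessory subunit at the joint between the Q module and the membrane, fell from 275 and 261 FPKM at GV to 9.79 and 8.87 at MI and to 0.99 and 0.63 at MII, which is 0.30% of its GV mean. Its log2 change was -7.22 (SE 0.27, adjusted p = 5.0e-12). Ndufb7 of the distal arm had already fallen to 3.17 and 2.65 FPKM at MI, from 163 and 157, and stood at 0.67 and 0.72 at MII (-6.57, SE 0.23, adjusted p = 3.8e-12). These transcripts were nearly gone from WT eggs. Ndufb8, also of the distal arm, stood at 27.0 and 29.98 FPKM at MII after 273 and 166 at GV (-2.86, SE 0.37, adjusted p = 1.9e-06). Ndufab1, the mitochondrial acyl carrier protein, which sits in both arms and also serves lipoic acid synthesis, went from 349 and 268 to 19.0 and 15.8 FPKM (-4.06, SE 0.45, adjusted p = 3.0e-07).

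A few members fell less than most. Ndufa10, a nucleoside-kinase-like subunit of the proximal arm, stood at 77.6 and 55.2 FPKM at GV and 36.1 and 30.1 at MII, 49.9% of its GV mean, and its log2 change of -0.97 (SE 0.33, adjusted p = 0.014) turned to 0.93 after scaling. Ndufa4 stood at 601 and 388 FPKM at GV and 183 and 198 at MII, a change of -1.34 (SE 0.47, adjusted p = 0.015) that turned to 0.59 after scaling. Ndufa10 and Ndufa4 thus fell in the deposited FPKM, without overlap of the libraries, but less than the genes used for scaling. The assembly factor Ndufaf2 (36.4 and 67.5 FPKM at MII after 326 and 154) and the small membrane subunit Ndufa1 (29.9 and 61.0 after 201 and 178) changed by -2.15 (SE 0.49, adjusted p = 0.00075) and -2.12 (SE 0.40, adjusted p = 0.00011). Both stood lower after scaling by amounts that did not pass the test (-0.23 and -0.21). Among the other assembly factors, Ndufaf3 went from 35.3 and 39.9 to 0.04 and 0.27 FPKM (-5.07, SE 0.27, adjusted p = 4.3e-11), and Ndufaf1 from 1.40 and 0.53 to 0.10 and 0.02 (-0.86, SE 0.22, adjusted p = 0.0017). Ndufa4l2 was listed at 0 in both MII libraries (-0.51, SE 0.18, adjusted p = 0.018). The calls of Ndufa10 and Ndufa4 were lost without the WT GV replicate 1 library (adjusted p = 0.13 for each), that of Ndufa10 also without WT MII replicate 2 (0.078) and that of Ndufa4 without WT MII replicate 1 (0.061).

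Much of the fall was seen by MI. There 39 members were called lower than at GV, against 65.1% of all genes, with a median log2 change of -2.79. The other 3 were Ndufa1 (147 and 96.8 FPKM at MI, -0.66, SE 0.40, adjusted p = 0.15), Ndufa3 (-1.01, SE 0.44, adjusted p = 0.050) and Ndufa4l2 (-0.38, SE 0.18, adjusted p = 0.077). After scaling, 28 of 41 members were lower at MI than at GV (30.5% of all genes were) and 0 higher (15.2% were). From MII to zygote the median member in WT changed by 0.11 on the log2 scale. Ndufa8 and Ndufs3 were called higher (1.04% of all genes were) and Ndufa1 lower (3.22% were), and after scaling 10 were higher (15.0% of all genes were) and 3 lower (4.86% were) of 41.

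The 2 members that rose in WT zygotes were low there all the same. Ndufa8, a membrane-arm subunit of the intermembrane space, stood at 1.10 and 2.16 FPKM at MII and 12.5 and 4.37 in zygotes (1.73, SE 0.37, adjusted p = 0.013), after 225 and 208 at GV. Ndufs3, a core Q-module subunit, stood at 1.82 and 1.21 at MII and 8.37 and 2.89 in zygotes (1.27, SE 0.34, adjusted p = 0.044). Ndufa1 went from 29.9 and 61.0 to 13.7 and 16.1 FPKM (-1.47, SE 0.40, adjusted p = 0.044), and Ndufa4 from 183 and 198 to 87.4 and 42.1 (-1.63, SE 0.47, adjusted p = 0.061). The calls of Ndufa8, Ndufs3 and Ndufa1 were lost when only the WT MII and zygote libraries were fitted, and without WT zygote replicate 1 (adjusted p = 0.17, 0.38 and 0.19).

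At MI more of the Nduf transcripts was left in the mutants than in WT. The median of 41 members there was 48.8% of the GV level in Cnot6l-/- oocytes, and 62.0% in those labelled Btg4-/-. Relative to their own GV oocytes, 19 members were called lower in Cnot6l-/- at MI, against 15.0% of all genes. That count was 1 to 5 with any of the 4 libraries left out (1 without MI replicate 3 and 3 without MI replicate 2, by column number, 2 without GV replicate 1 and 5 without GV replicate 2), 3 with a pseudocount of 0.1 and 33 with only the libraries compared. After scaling, 15 of 41 were lower in Cnot6l-/- at MI, against 10.6% of all genes. None was called in the group labelled Btg4-/- (limma), where 1.66% of all genes were called and 11 members had an unadjusted p under 0.05. Against WT at MI, 32 members were higher in Cnot6l-/- (60.3% of all genes were), 34 were higher in the group labelled Btg4-/- (68.7% were), and none was called lower. These counts include Ndufa4l2, and in Cnot6l-/- also Ndufaf1, which entered the test only through mutant groups. After scaling, of 41, 22 were higher (35.8% of all genes were) and 3 lower (11.0% were) in Cnot6l-/-, and 23 higher (32.5% were) and 2 lower (9.82% were) in the other mutant. The change from GV to MI was itself less negative than in WT for 23 members in Cnot6l-/- (44.4% of all genes) and for 30 in the group labelled Btg4-/- (45.4%).

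The distal-arm gene Ndufb7 differed most at MI. It stood at 94.7 and 95.7 FPKM in Cnot6l-/- and 102 and 117 in oocytes labelled Btg4-/-, against 3.17 and 2.65 in WT, log2 differences of 4.62 (SE 0.23, adjusted p = 7.8e-10) and 4.82 (SE 0.23, adjusted p = 1.1e-09). Ndufv1, the subunit that binds NADH and the flavin, changed by 0.04 from GV to MI in Cnot6l-/- (SE 0.26, adjusted p = 0.94) and by -0.29 in the other mutant (SE 0.26, adjusted p = 0.72). It stood at MI at 52.4 and 58.4 FPKM in Cnot6l-/- and 49.3 and 47.4 in the group labelled Btg4-/-, against 4.71 and 5.45 in WT (3.21, SE 0.26, adjusted p = 3.2e-08, and 3.02, SE 0.26, adjusted p = 4.8e-08). Between the mutants, Ndufaf2 alone was called at MI, lower in Cnot6l-/- (52.3 and 41.1 FPKM) than in oocytes labelled Btg4-/- (158 and 164), by a log2 difference of -1.78 (SE 0.49, adjusted p = 0.028), where 6.46% of all genes were lower. That call was lost when any of the 4 libraries was left out (adjusted p = 0.087 to 0.20).

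By MII the median member had fallen further than at MI in each mutant, but less far than in WT. The median member of 41 stood at 28.7% of its GV level in Cnot6l-/- eggs and 21.9% in eggs labelled Btg4-/-, against 2.1% in WT. Relative to their own GV oocytes 36 members were called lower in each mutant, where 59.9% of all genes were in Cnot6l-/- and 75.3% in the other, and 32 members were in both sets. After scaling 18 (23.4% of all genes) and 22 (29.7%) were lower, of 41. Compared with WT at MII, 37 members were higher in Cnot6l-/- (44.3% of all genes were) and 33 in the group labelled Btg4-/- (28.3% were), with median log2 differences of 2.99 and 1.98, against 0.56 and 0.38 for all genes. After scaling, of 41, 32 were higher (34.3% of all genes were) and Ndufa10 lower (8.69% were) in Cnot6l-/-, and 30 were higher (21.8% were) and Ndufa10 lower (6.55% were) in the other mutant. The change from GV to MII differed from that of WT in Cnot6l-/- for 32 members that fell less (24.1% of all genes) and, with the opposite sign (0.717%), for Ndufa4l2, and it was less negative for 25 members in the group labelled Btg4-/- (13.3%). The value of Ndufa4l2 (-0.86, SE 0.26, adjusted p = 0.022) was lost after scaling (-0.43, adjusted p = 0.34). It is listed at 0 in both WT libraries at MII and stood at 14.2% of its GV mean in Cnot6l-/-.

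By role, among the complex I subunits and assembly factors, the Q module had the lowest median in WT eggs. Ndufa4, of complex IV, stood at 38.5% of GV. Median levels at MII were 1.04% of GV in the Q module and 1.89% in the N module. They were 5.47% for the 4 assembly factors (0.41% to 21.7%) and 5.64% for Ndufab1, a single gene. In Cnot6l-/- eggs the same medians were 17.1%, 27.3%, 35.8% and 42.7%. In eggs labelled Btg4-/- they were 9.55%, 14.2%, 36.8% and 70.6%. In WT eggs the membrane-arm subunits, not split further here, ran from 0.43% (Ndufb7) to 49.9% (Ndufa10). The Q module was lowest in each genotype, but its members ranged from 14.02% to 50.2% in Cnot6l-/- and overlapped those of every other class with more than 1 member.

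**Figure D2:**
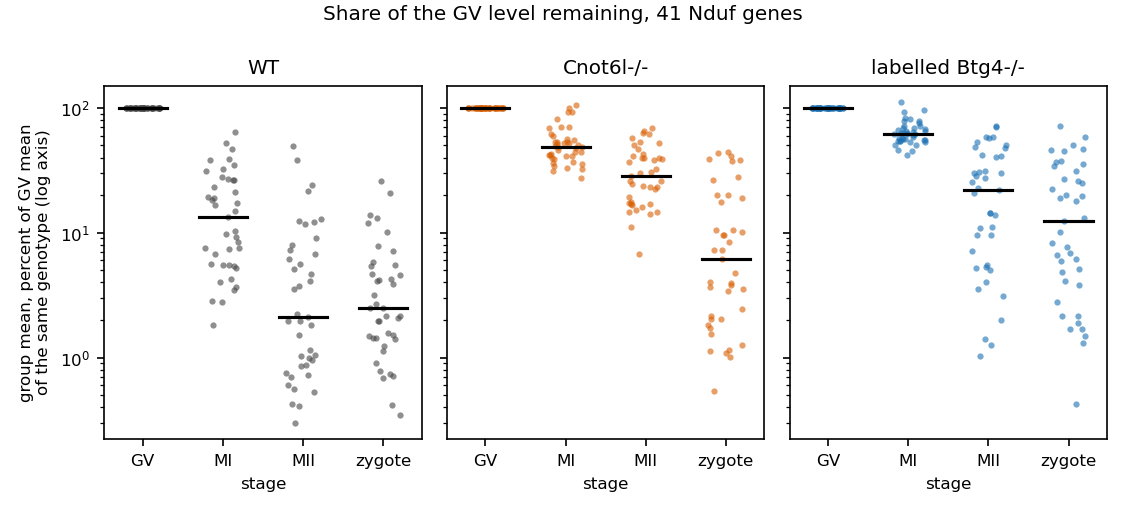
Each point is a Nduf gene (41, without Ndufa4l2), placed at its group mean as a percentage of the GV mean of the same genotype on a log axis, and black lines are medians. The WT median drops to 2.1% by MII, while those of the mutants are 28.7% (Cnot6l-/-) and 21.9% (labelled Btg4-/-) at MII, and lie at 6.16% and 12.5% in zygotes.

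The largest gaps to WT in Cnot6l-/- eggs were at membrane-arm genes and Ndufa2. Ndufb4 stood at 136 and 142 FPKM, against 3.68 and 2.87 in WT (5.04, SE 0.35, adjusted p = 2.8e-08). Ndufc1, a small membrane subunit, stood at 43.8 and 60.3 against 1.46 and 0.60 (4.72, SE 0.36, adjusted p = 5.1e-08), and Ndufa2 at 99.3 and 139 against 4.07 and 4.63 (4.47, SE 0.33, adjusted p = 4.8e-08). In each case both mutant libraries were above both WT libraries. The smallest differences were at genes that had fallen less than most members in WT or were barely expressed. Ndufa10 stood at 51.5 and 34.6 FPKM in Cnot6l-/- (0.35, SE 0.33, adjusted p = 0.43), Ndufa4l2 at 0.28 and 0.43 (0.44, SE 0.18, adjusted p = 0.064) and Ndufaf2 at 70.3 and 71.3 (0.50, SE 0.49, adjusted p = 0.43).

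In eggs labelled Btg4-/- the paired subunits Ndufc1 and Ndufc2, which lie next to each other in the membrane arm, and Ndufb3 stood furthest above WT. Ndufc2 was at 103 and 117 FPKM against 1.51 and 3.16 in WT (5.11, SE 0.51, adjusted p = 1.9e-06). Ndufc1 was at 54.9 and 40.6 (4.60, SE 0.36, adjusted p = 2.4e-07), and Ndufb3, of the distal arm, at 180 and 135 against 4.48 and 6.98 (4.57, SE 0.40, adjusted p = 5.2e-07). Libraries did not overlap at these genes. Ndufa10 (41.9 and 24.2 FPKM) differed from WT by -0.05 (SE 0.33, adjusted p = 0.95) with a 95% confidence interval of -0.76 to 0.66, and by -0.76 after scaling (adjusted p = 0.0034). Ndufa4l2 (0.07 and 0) differed by 0.05 (SE 0.18, adjusted p = 0.91) and Ndufaf3 (0.40 and 0.78) by 0.46 (SE 0.27, adjusted p = 0.23).

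The mutants also differed from each other at MII. In direct comparison 15 members were higher in Cnot6l-/- eggs than in eggs labelled Btg4-/- (11.0% of all genes were), and none was called lower. After scaling 17 were higher (13.9% of all genes were) and 1, Ndufaf2, lower (4.27% were), of 41, and with only the libraries compared 4 were called. The 15 included Ndufa2, Ndufa7, Ndufa12, Ndufv1 and Ndufv3 of the N module, Ndufs7 and Ndufs8 of the Q module, and Ndufa9 at its joint with the membrane. The rest were Ndufa11, Ndufb4, Ndufb7, Ndufb9, Ndufb10 and Ndufb11 of the membrane arm, and the assembly factor Ndufaf3. Ndufb7 had the largest difference, with 29.1 and 28.5 FPKM in Cnot6l-/- eggs and 2.39 and 2.53 in eggs labelled Btg4-/- (3.11, SE 0.23, adjusted p = 1.8e-07). Ndufa9 stood at 32.3 and 19.3 against 3.29 and 3.10 (2.63, SE 0.27, adjusted p = 7.6e-06). Ndufb4 stood at 136 and 142 against 33.5 and 24.2 (2.25, SE 0.35, adjusted p = 0.00038), and Ndufs7 at 27.0 and 42.9 against 5.83 and 7.04 (2.24, SE 0.28, adjusted p = 5.2e-05). At MI none of these 4 had been called between the mutants (log2 differences of -0.59 to 0.04, adjusted p = 0.22 to 0.96).

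**Figure D3:**
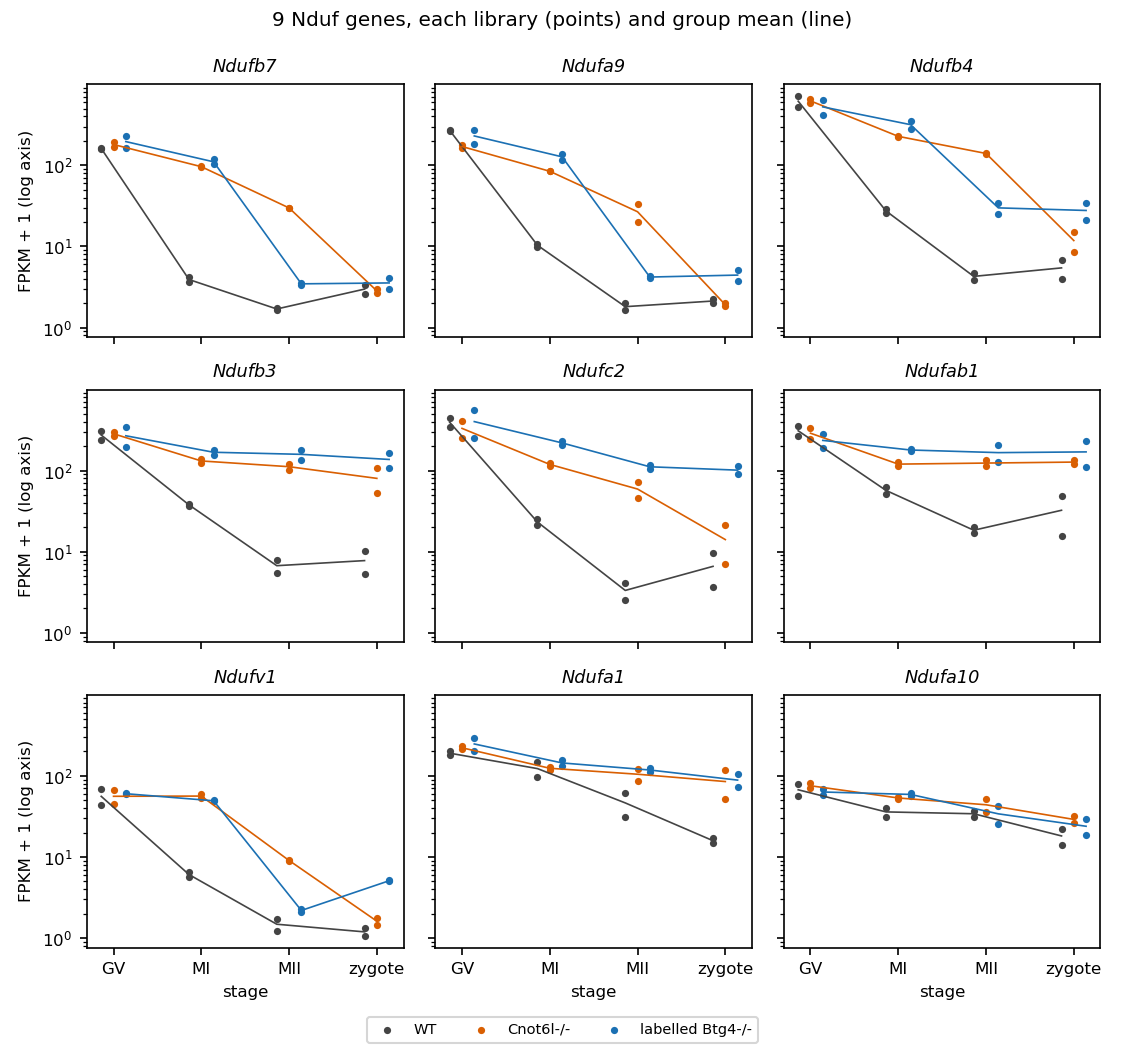
FPKM + 1 of 9 Nduf genes on a log axis by stage, with a point for each library and lines through the group means. Ndufb7, Ndufa9, Ndufb4 and Ndufv1 lie lower at MII in the group labelled Btg4-/- than in Cnot6l-/-, where they drop both by MII and again in zygotes, Ndufb3 and Ndufab1 stay high in both mutants, and Ndufa10 lies close in all genotypes.

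Between MII and zygote the order turned for many members. In Cnot6l-/- 29 members fell (28.7% of all genes did; 26 of 41 after scaling, against 18.1%), by up to -3.79 at Ndufc1 (SE 0.36, adjusted p = 1.9e-06; 43.8 and 60.3 FPKM to 2.44 and 3.17) and -3.77 at Ndufa9 (SE 0.27, adjusted p = 3.0e-07; 32.3 and 19.3 to 0.82 and 1.0). In the group labelled Btg4-/- 6 fell (1.07% of all genes), namely Ndufa3, Ndufa5, Ndufa7, Ndufa11, Ndufa12 and Ndufv3, and Ndufv1 rose (0.248%). Ndufa5 fell there by -2.38 (SE 0.52, adjusted p = 0.030; 51.9 and 35.4 to 16.3 and 3.13 FPKM), and Ndufv1 went from 1.10 and 1.29 to 4.05 and 4.15 FPKM (1.22, SE 0.26, adjusted p = 0.027). None of these 7 calls was left when only the MII and zygote libraries labelled Btg4-/- were fitted. The change from MII to zygote was more negative in Cnot6l-/- than in the group labelled Btg4-/- for 18 members, against 11.5% of all genes, a contrast added after the data were seen. It was -3.83 at Ndufa9 (SE 0.38, adjusted p = 1.6e-05) and -3.71 at Ndufv1 (SE 0.37, adjusted p = 1.6e-05). At Ndufc2 it was -2.09 (SE 0.72, adjusted p = 0.076).

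In zygotes 14 members were lower in Cnot6l-/- than in the group labelled Btg4-/- (12.8% of all genes were) and 2 were higher (1.71% were). After scaling 17 were lower (17.0% of all genes were) and 6 higher (7.31% were), of 41, and with only the libraries compared 7 were called. Ndufc2 stood at 6.15 and 20.1 FPKM in Cnot6l-/- zygotes and 111 and 89.2 in those labelled Btg4-/- (-3.04, SE 0.51, adjusted p = 0.00064). Ndufv2, an iron-sulphur subunit of the N module, stood at 2.76 and 2.09 against 29.8 and 9.85 (-2.42, SE 0.47, adjusted p = 0.0020). At neither gene did the libraries overlap. Of the 15 members that were higher in Cnot6l-/- at MII, 5 were among the 14 that were lower in zygotes: Ndufa9 (-1.20, SE 0.27, adjusted p = 0.0058), Ndufv1 (-1.66, SE 0.26, adjusted p = 0.00040), Ndufb4, Ndufb10 and Ndufs8. Ndufa11 (1.26, SE 0.34, adjusted p = 0.019) and Ndufa12 (1.28, SE 0.29, adjusted p = 0.0066) were higher in Cnot6l-/- at both stages. Their zygote calls were lost without Cnot6l-/- zygote replicate 2 (adjusted p = 0.24 and 0.066) or replicate 2 labelled Btg4-/- (0.10 and 0.076), that of Ndufa11 also without replicate 1 labelled Btg4-/- (0.051), and that of Ndufa9 without Cnot6l-/- replicate 1 (0.050) or replicate 1 labelled Btg4-/- (0.083). Of the 7 nuclear core subunits, which carry the redox centres, 5 were lower in Cnot6l-/- zygotes and none was called higher.

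**Figure D4:**
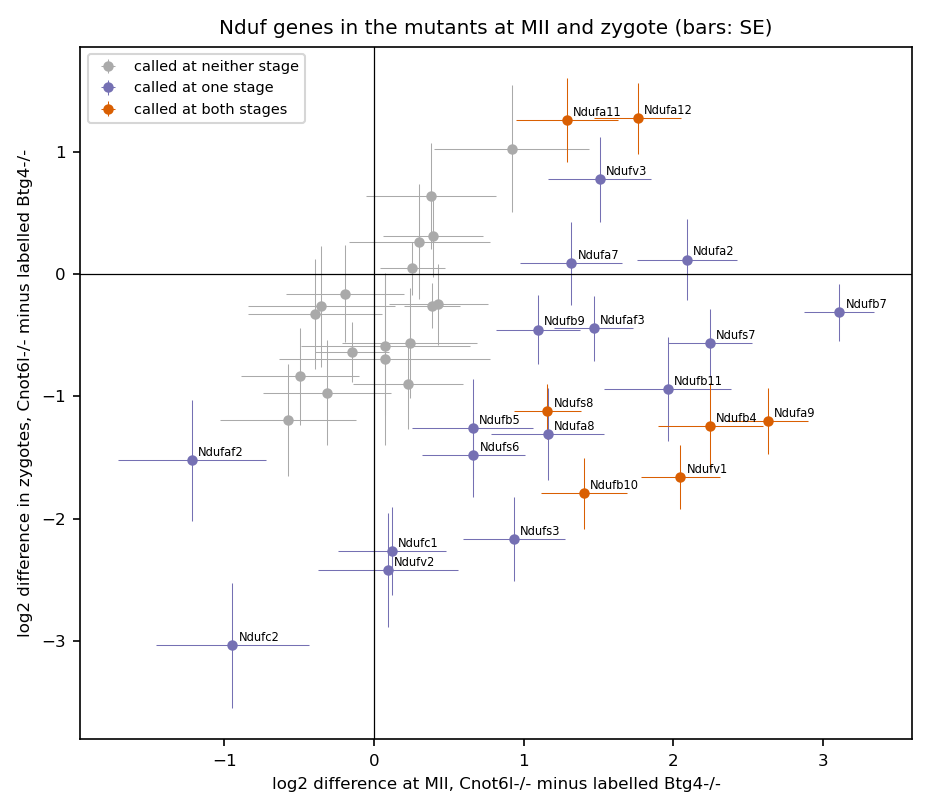
Each point is a Nduf gene (41 of the 42), with its log2 difference between Cnot6l-/- and the group labelled Btg4-/- at MII on the horizontal axis and in zygotes on the vertical axis (bars: SE). The lower right quadrant holds genes higher in Cnot6l-/- at MII and lower in zygotes, among them the 5 called at both stages, and Ndufa11 and Ndufa12 lie at the upper right.

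Against WT zygotes, 15 members were higher in Cnot6l-/- (8.00% of all genes were) and 30 in the group labelled Btg4-/- (21.5% were), with none called lower. After scaling, of 41, 11 were higher (8.00% of all genes were) and 2 lower (7.91% were) in Cnot6l-/-, and 17 higher (11.7% were) and 1 lower (3.04% was) in the other mutant. With only the libraries compared 9 and 6 were called. Ndufb3 stood highest above WT in each: at 51.3 and 107 FPKM in Cnot6l-/- (3.35, SE 0.40, adjusted p = 4.6e-05) and 165 and 107 in the group labelled Btg4-/- (4.19, SE 0.40, adjusted p = 2.0e-06), against 9.28 and 4.27 in WT. Ndufc2 differed from WT by 4.09 (SE 0.51, adjusted p = 2.9e-05) in zygotes labelled Btg4-/-. Ndufa1 stood at 50.5 and 118 FPKM in Cnot6l-/- zygotes and 13.7 and 16.1 in WT (2.30, SE 0.40, adjusted p = 0.0014). Ndufab1 stayed near its MII level in both mutants, at 120 and 133 FPKM in Cnot6l-/- zygotes and 228 and 110 in those labelled Btg4-/-, which was 43.9% and 72.0% of its GV means, against 10.2% in WT. Ndufaf2, at 44.2% and 58.9% of its GV means, was the other member of the top pair in each mutant. Without the Cnot6l-/- zygote replicate 2 library the count of members called in Cnot6l-/- was 4, and without the zygote replicate 1 library labelled Btg4-/- that in the other mutant was 19. Replicate 2 of Cnot6l-/- had the higher summed FPKM of its pair (130389 against 87577), as had replicate 1 of the group labelled Btg4-/- (180847 against 111442), and the part of this in the counts was not tested.

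The order of the members by share remaining was alike across genotypes. Over 41 members, Spearman's rho at MII was 0.81 between WT and Cnot6l-/-, 0.79 between WT and the group labelled Btg4-/- and 0.80 between the mutants. In zygotes the values were 0.81, 0.74 and 0.73. The points share the libraries of their group, so these are descriptions only. In the group labelled Btg4-/- the share remaining was lower in members of high GC content (rho -0.60 at MII and -0.53 in zygotes, over 41 transcripts), against -0.23 and -0.33 in WT and -0.26 and -0.34 in Cnot6l-/- at these stages. The length of the 3′ UTR showed little relation (rho 0.07 in WT, 0.02 in Cnot6l-/-, and 0.29 for eggs labelled Btg4-/-, at MII).

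Nduf mRNAs are short, and so are their 3′ UTRs, the region where poly(A) tails and the elements that control them are found. In the gencode transcripts of mm9, their median 3′ UTR had 133.5 bases (33 to 3026), against 768.5 over 10080 genes tested. The annotated end lay within 50 bases of the end in the deposited table for 36 of 42. A polyadenylation hexamer was found in the last 50 bases of 32 members, AATAAA in 23 and ATTAAA in 9, and 76.2% of members against 76.6% of genes held one. The 30 bases that end with the hexamer (in capitals) are shown for some members. They are 2 that were nearly gone from WT eggs, 2 that stood far above WT in eggs labelled Btg4-/- and 2 that fell less than most in WT.
Ndufa9, mm9 chr6:126771899-126771928, minus strand: attcagaactgaggcttgttttctATTAAA
Ndufb7, mm9 chr8:86095474-86095503, plus strand: gccagcctgtggacctatcagtgaAATAAA
Ndufb3, mm9 chr1:58652760-58652789, plus strand: aaactgttgtttttgtaactcttaAATAAA
Ndufc2, mm9 chr7:104556264-104556293, plus strand: ttaggttaagatgttaacactgttATTAAA
Ndufa4, mm9 chr6:11850386-11850415, minus strand: tttttggagtttattacactgatgAATAAA
Ndufa1, mm9 chrX:34727602-34727631, minus strand: ctatgcgcatgttatgaaatgcatAATAAA
Each form of the hexamer occurs among genes that were nearly gone from WT eggs (ATTAAA in Ndufa9, AATAAA in Ndufb7). Each also occurs among genes that stood far above WT in eggs labelled Btg4-/- (AATAAA in Ndufb3, ATTAAA in Ndufc2).

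The 3′ UTRs were searched for known control elements. The cytoplasmic polyadenylation element (CPE, bound by CPEB1; searched as TTTTAT or TTTTAAT on the transcript strand) was present in 7 of 42 members, 16.7%, against 56.1% of genes tested and 37.2% of genes whose 3′ UTR lay within the 10th to 90th percentile of the members' lengths. These 5233 genes still had a longer median 3′ UTR, of 366 bases. The PUM motif TGTANATA was present in 2 members, 4.8%, against 21.9% of genes tested and 10.8% of those in the length range. ATTTA, the core of AU-rich elements, was in 40.5% of members, against 62.1% of genes tested and 42.8% of those in the length range, a share near that of the members. The 7 members with a CPE were Ndufa2, Ndufab1, Ndufaf4, Ndufc1, Ndufc2, Ndufs4 and Ndufv2. Their median level in zygotes labelled Btg4-/- was 31.5% of GV (1.70% to 72.0%), against 9.14% for the 34 without one (0.43% to 58.9%). In eggs of that label it was 30.4% against 14.4%. The order was the other way in Cnot6l-/-, with 23.2% against 31.7% in eggs and 3.97% against 6.69% in zygotes. It was so in WT too, with 1.05% against 2.17% in eggs and 1.57% against 2.5% in zygotes. The ranges overlap in every group. The CPE nearest the transcript end, with the CPE in capitals, is shown for 4 of them.
Ndufab1, mm9 chr7:129233667-129233696, minus strand: aacatttttaatTTTTATtgatgttgctta
Ndufc2, mm9 chr7:104556223-104556252, plus strand: atattttctgagTTTTATgggattttctgt
Ndufs4, mm9 chr13:115078043-115078072, minus strand: ccaatggagatcTTTTATtcttaggaaata
Ndufv2, mm9 chr17:66428494-66428523, minus strand: aattgttaaattTTTTATaagctttatgtc
The element ended 109 bases before the transcript end in Ndufab1, 72 in Ndufc2, 52 in Ndufs4 and 371 in Ndufv2. The transcripts of Ndufab1 and Ndufc1 used here end elsewhere than in the deposited table. The only CPE of Ndufc1 lies outside the span given for that gene in the deposited table.

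Promoters of the members were searched for motifs. RefSeq promoters (GRCm38.p6, 250 bases before to 50 after the start) were matched for 37 of 42 members. AAGATGGC, the core of the motif of the factor YY1, was present on either strand in 7 (18.9%), against 2.88% of 27025 promoters, and the letters GCGC, any base and TGCGC, the motif of NRF1, a regulator of nuclear genes for mitochondria, in 8 (21.6%) against 4.78%. CCGGAAG, an ETS-factor core, was in 5 (13.5%) against 9.12%. The YY1 core (in capitals) is shown for 3 members. In all 7 it lay on the gene's strand and downstream of the start, in these 3 at 22 to 29 bases, and it contains an ATG.
Ndufa9, GRCm38.p6 chr6:126849097-126849126, minus strand: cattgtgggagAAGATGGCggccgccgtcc
Ndufc1, GRCm38.p6 chr3:51408915-51408944, minus strand: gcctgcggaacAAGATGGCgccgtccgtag
Ndufs7, GRCm38.p6 chr10:80249462-80249491, plus strand: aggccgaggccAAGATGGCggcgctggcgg
A match describes the letters and not a bound site.

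Genes of the other respiratory complexes were lower at MII too, in smaller number after scaling (15 of 16, 11 of 13 and 8 of 11 for the 3 lists that follow, where 43.2% of all genes were). In WT from GV to MII, all 16 complex V genes listed were called lower, where 83.4% of all genes were (median log2 change -5.33), as were all 13 of complexes II and III (-4.57) and 10 of 11 of complex IV (-3.59), beside -4.99 over the Nduf members. Of the complex I assembly factors without an Nduf symbol, 8 were tested of 13 listed, and all 8 were lower (-3.02). Of regulators of mitochondrial gene expression 6 of 8 tested were lower (-1.80). The counts of complex IV and of these regulators lie near the share over all genes. In Cnot6l-/- eggs 15 of 16 complex V genes, 12 of 13 of complexes II and III and 10 of 11 of complex IV were higher than in WT (44.3% of all genes were), with medians of 3.27, 2.36 and 1.78, beside 2.99 over the Nduf members. In eggs labelled Btg4-/- the counts were 14, 9 and 8 (28.3% of all genes were higher), with medians of 1.94, 1.69 and 1.36, beside 1.98. After scaling 14, 11 and 6 were higher in Cnot6l-/- (34.3% of all genes were) and 12, 7 and 3 in the group labelled Btg4-/- (21.8% were). Between the mutants, 5 of 16 complex V genes were higher in Cnot6l-/- at MII (11.0% of all genes were) and 7 were lower in zygotes (12.8% were).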

How the data were processed

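RNA of pooled oocytes, eggs or zygotes was sequenced in 24 libraries (Smart-Seq2 and a Tn5 kit, per the labels' protocols). The protocol gives 100 oocytes per library and the series' design text 2. The FPKM were deposited by the authors. The submitters' processing notes name CASAVA 1.8, TopHat2 2.0.11, Bowtie2 2.1.0, Cufflinks 2.2.1 and mm9. Their scaling across libraries and their handling of reads shared with pseudogene copies were not stated. Depth is unknown, and the spread of each library pair sets the precision. Single-library tables were not used. MI columns carry the numbers 2 and 3 and were assigned to groups only. Smart-Seq2 does not mark strand, so overlapping antisense reads cannot be told apart.

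Genes averaging 1 FPKM or more in any group (10884) entered a limma model (3.58.1, R 4.3.3) of log2(FPKM + 1) with 12 group means, eBayes with trend and 12 residual degrees of freedom. Each of 25 contrasts had a two-sided moderated test, adjusted over genes (Benjamini-Hochberg) and called at 0.05. A pseudocount of 1 understates changes of low genes. The design assumed FPKM to be shares of a fixed total, which the sums contradict. The fit was tested on simulated data.

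The members and lists were chosen with earlier results of these data known, and 1 contrast (MII to zygote between the mutants) was added after seeing the data. Library values were due, per role, for the members with the highest and lowest WT change from GV to MII, the 3 highest and 3 lowest in each mutant at MII, the 2 extremes each way from MII to zygote in WT (of which Ndufa3 was not called and is given at MI), those called at GV and the 3 highest at GV. Others (such as Ndufv1 and Ndufv2) were chosen after their values were seen. The values of 1 member are not reported here, though it is counted among the 42. Lists covered the other respiratory complexes, assembly factors, regulators and markers of oocytes, cumulus, sperm and blood. Sperm markers summed to 3.83 to 105 FPKM, highest in Cnot6l-/- GV oocytes (79.0 and 105) and at 3.83 to 9.86 in zygotes. Blood markers summed to 0.49 to 3.13. The alternatives tried changed the pseudocount (to 0.1), the filter, the scaling, the libraries fitted or the replicate block, or left out each library in turn.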

Additional observations from a re-analysis of the deposited data

Results flagged for a closer look

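Changes between stages were compared between genotypes by a test of the difference itself. The change from GV to MI differed from that in WT for 23 of 42 Nduf members (54.8%) in Cnot6l-/-, not far above the 44.4% of all genes. In the group labelled Btg4-/- it differed for 30 (71.4%), against 45.4%. The change from GV to MII differed for 33 members in Cnot6l-/-, 32 of them less negative, against 24.1% of all genes. The other was Ndufa4l2, which entered the test only through mutant groups. In the group labelled Btg4-/- the change from GV to MII differed for 25 (59.5%), against 13.3%. The change from MII to zygote differed between the mutants for 18 members (42.9%), each more negative in Cnot6l-/-, against 11.5% of all genes.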

How the results depend on the processing

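Counts are of Nduf members called, in either direction. With a pseudocount of 0.1 they became 9 from MII to zygote in WT, 3 from GV to MI in Cnot6l-/- and 0 for the group labelled Btg4-/- against WT at GV. Without the filter they became 4 from GV to MI in the group labelled Btg4-/- and 0 between the mutants at MI. After scaling they were 13 from MII to zygote in WT, 18 from GV to MII in Cnot6l-/-, 22 for the same step in the group labelled Btg4-/-, and, for the latter against WT, 0 at GV and 18 in zygotes. With only the libraries compared they were 0 from MII to zygote in WT and in the group labelled Btg4-/-, 33 from GV to MI in Cnot6l-/-, 9 for Cnot6l-/- against WT in zygotes, 0 at GV and 6 in zygotes for the group labelled Btg4-/- against WT, and 24, 4 and 7 between the mutants at MI, MII and in zygotes.

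The replicate block gave 6 from MII to zygote in WT, 1 from GV to MI in the group labelled Btg4-/- and 2 between the mutants at MI, and moved no other count of calls by over 1.5 times. The libraries share only a number: over 36 pairs of groups the deviations of same-numbered libraries correlated at -0.307 to 0.706 (median 0.441), and over 3 pairs of MI groups at -0.086 to 0.010.

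With single libraries left out, the counts ranged from 0 to 2 from MII to zygote in WT (3 with all), from 1 to 5 from GV to MI in Cnot6l-/- (19), from 0 to 2 from GV to MI (0) and from 0 to 5 from MII to zygote (7) in the group labelled Btg4-/-. Against WT they ranged from 4 to 19 in Cnot6l-/- zygotes (15), and for the group labelled Btg4-/- from 0 to 1 at GV (1), from 19 to 29 in zygotes (30) and from 15 to 26 for the change from GV to MII (25, lowest without its GV replicate 1). Between the mutants they were 0 at MI (1) and 10 to 18 in zygotes (16, lowest without zygote replicate 1 labelled Btg4-/-).

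Scaling turned the sign of the WT change from GV to MII for Ndufa10 (0.93) and Ndufa4 (0.59) and from GV to MI for Ndufa1 (0.60) and Ndufa3 (0.24), and that of the difference of Cnot6l-/- from WT at MII for Ndufa10 (-0.47) and Ndufaf2 (-0.32). With single libraries left out, the difference of the group labelled Btg4-/- from WT at MII ranged from -0.43 to 0.34 for Ndufa10 (0.08 without WT replicate 1) and from 0.00 to 0.10 for Ndufa4l2. The cause of these moves was not tested. The unknown depth limits what can be said of members near 0 FPKM, such as Ndufaf1 and Ndufa4l2.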
